A study of Rattus norvegicus with 12 samples.

Results

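Mitochondrial ribosomal protein genes were compared in the whole striatum of rats that had self-administered methamphetamine (MA), at different times after the last session. The members were all rows of the count table whose symbol starts with Mrpl or Mrps followed by a digit, in that spelling, with a mean of at least 10 counts over the 12 libraries. Of 17337 genes in the table, 69 carried such a symbol and 66 were members, 38 with an Mrpl symbol (large subunit) and 28 with an Mrps symbol (small subunit). The 12 rats were wild-type adult male Sprague-Dawley rats. The labels give every one 16 days of MA self-administration, which the study did through a jugular catheter. The 3 groups were MA12 (12 h of abstinence, n = 4), MA24 (24 h of abstinence, n = 4) and a group that the labels call non-addicted (n = 4). What made a rat non-addicted, and how long after its last session its striatum was taken, are not given in the sources used here. The study describes saline and MA groups and none called non-addicted, so MA intake in that group rests on the labels alone. By the labels, no drug-naive rats were analysed, and every difference below is between rats that had all taken MA. The clock hour of collection is not given in the sources used here, so any difference in it cannot be told apart from the length of abstinence.

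Mitochondria keep their own ribosome. It translates the few messenger RNAs of mitochondrial DNA, which encode core subunits of the respiratory chain and the ATP synthase, while its own proteins are encoded in the nucleus, made on cytosolic ribosomes and imported. Some of these proteins descend from those of the bacterial ribosome and others were added in mitochondria, and in neurons their product supplies the respiratory chain that carries much of the energy cost of firing and transmission. By a fixed reading of the protein names, 37 members have a bacterial counterpart and 29 are specific to mitochondria. Mrps18a and Mrps18b count among the latter, since of the 3 Mrps18 paralogues only Mrps18c takes the place of the bacterial protein to which all are related. A few symbols mislead. Mrps18a and Mrps30 encode proteins of the large subunit, and the product of Mrps36 is now assigned to the 2-oxoglutarate dehydrogenase complex. Genuine ribosomal proteins such as Dap3 carry other symbols, and 4 more rows were left out by their spelling (mrpl11, mrpl24, mrpl9 and Mrp63).

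Each library held between 17908962 and 23850284 counts, and the members took between 0.287% and 0.330% of them. Member means ran from 72.1 counts (Mrpl1) to 2076 counts (Mrpl17), with a median of 892, and the next lowest after Mrpl1 was Mrpl47 with 244. The 3 symbols below the minimum were almost silent, with 0 to 8 counts per library for Mrpl30, 0 to 2 for Mrpl36 and 0 to 1 for Mrpl53. All 12 libraries carry 1 batch label. The rat numbers are of 2 kinds, since those of all 4 MA24 rats and of 2 MA12 rats (4N and 7N) end in N and the others do not. Non-addicted and MA24 rats therefore cannot be told apart from the kind of number, whereas MA12 holds both kinds. Markers of striatal projection neurons were present in every group, with a summed level of 13980 to 18460 CPM (counts scaled to a common library size) over 10 genes, and none of the 8 marker lists had a gene at 0 in any group. In bulk tissue, fewer cells of a type and less RNA per cell cannot be told apart.

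Levels below are log2 CPM. Since transcript lengths were not used, levels are compared between rats and not between genes. The members were steady from rat to rat. Their SD within a group had a median of 0.12 on the log2 scale, compared with 0.17 over the 8074 genes in the same range of mean counts. Those genes had a median of 538 counts, below the 892 of the members, so this is not a comparison at equal counts. The median SD was 0.12 over cytosolic ribosomal protein genes and 0.11 over subunits of oxidative phosphorylation (OXPHOS). The most even members over the 12 rats were Mrps18a (SD 0.06), Mrpl17 (SD 0.07), a protein near the exit of the peptide tunnel, and Mrps2 (SD 0.08), of the small subunit. Mrps18a ranged only from 6.27 to 6.50. At the other end, Mrpl1 had few counts and an SD of 0.29, and among members with a mean of at least 100 counts Mrpl43 (SD 0.25), Mrps10 (SD 0.23) and Mrps18b (SD 0.21) varied most.

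Each member was then centred on its own mean over the 12 rats and averaged per rat. The mean deviation of the 66 members was -0.02, -0.04, -0.04 and -0.01 in MA12 rats 21, 31, 4N and 7N. In MA24 it was -0.01 in rat 9N, 0.14 in rat 14N, 0.02 in rat 15N and 0.05 in rat 16N. The non-addicted rats had 0.11 (rat 9), -0.09 (rat 11), -0.07 (rat 12) and -0.04 (rat 13). The MA12 rats lay close together, while 1 rat of each other group stood high. In MA24 rat 14N, 61 of 66 members were above their own mean and 21 had their highest level of the 12 rats, and in non-addicted rat 9 these numbers were 58 and 15. Rat 16N of MA24 also held 15 of the highest levels, but 28 of its members lay below their mean. Non-addicted rats 11 and 12 held the lowest level for 10 and 19 members. In the same units, cytosolic ribosomal protein genes had a mean deviation of 0.21 in rat 14N and 0.07 in non-addicted rat 9, and OXPHOS subunits had 0.20 and 0.03. Ependymal and choroid markers deviated by 1.44 in non-addicted rat 9, the highest of all rats, and by -0.31 in rat 14N. Non-addicted rat 9 also had the lowest mural (-0.73), endothelial (-0.49), microglia (-0.34) and astrocyte (-0.23) and the highest pan-neuronal (0.13) deviation of the 12 rats, and rat 14N had the lowest pan-neuronal one (-0.13). The part of these markers in the member values was not tested. Summed over all 66 members, the level was 2946 ± 30.8 CPM in MA12, 3149 ± 139 CPM in MA24 and 2967 ± 175 CPM in the non-addicted rats (SD, n = 4 each).

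**Figure D1:**
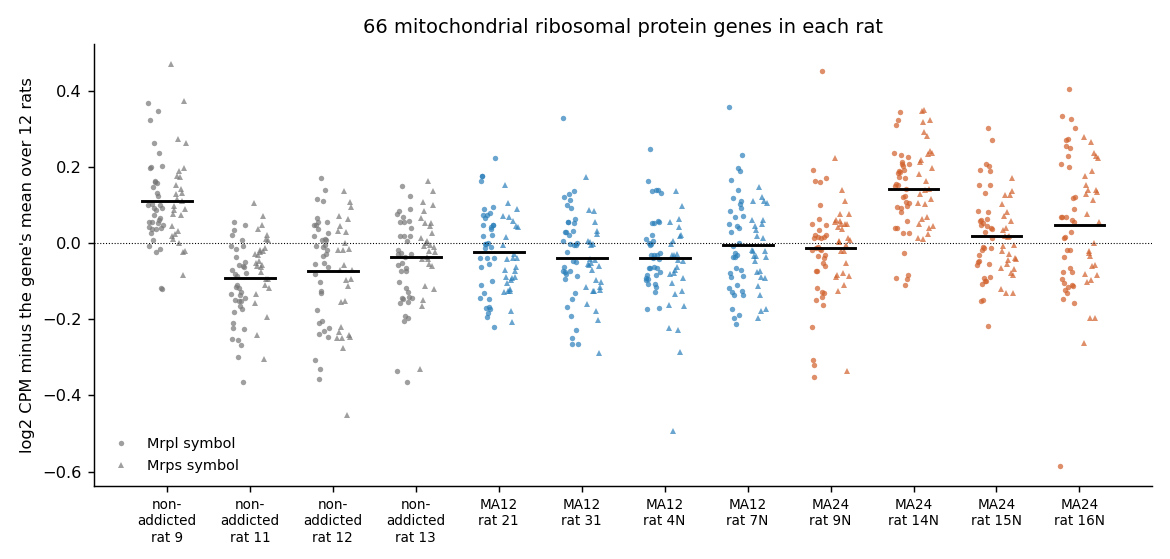
Deviation of each of the 66 members from its own mean over 12 rats (y axis, log2 CPM) in each rat (x axis). Circles are Mrpl symbols, triangles Mrps symbols, colours the 3 groups, and the black line is the mean of the 66 members, which was 0.14 in MA24 rat 14N and 0.11 in non-addicted rat 9 and lay from -0.04 to -0.01 in the 4 MA12 rats.

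The group means had their own order. MA24 had the highest mean for 44 of 66 members, MA12 for 14 and the non-addicted rats for 8. The lowest mean was in the non-addicted rats for 30 members, in MA12 for 29 and in MA24 for 7. These are descriptions of means that share the same rats, and the pairwise tests follow.

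What the members share outside their coding role was examined in the 250 bases before each gene's start. RefSeq (build GRCr8) held such a promoter for 51 of the 66 members. Letters found in promoters of genes for mitochondrial proteins were searched on both strands. CGCATGCG, the core of the palindrome bound by NRF1, a factor that activates many nuclear genes for mitochondria, was in 6 of 51 promoters (11.8%) and in 1.6% of the 27457 promoters of the table. CCGGAAG, a core letter set of the ETS family to which GABP (NRF2) belongs, was in 8 (15.7%) compared with 7.7%. ACANNTCCC, part of the element bound by ZNF143, was in 6 (11.8%) compared with 5.7%, and these letters were added after the Mrpl34 promoter had been read. Mrpl34 is itself among the 6, so these shares cannot be compared as for letters chosen in advance. CCAAT was in 23 (45.1%) compared with 34.3%, and TATAAA in 7 (13.7%) compared with 13.1%. None of the member promoters held both NRF1 and ETS letters (0 of 51), and the share over all promoters was not counted. At least 1 of the NRF1, ETS and ZNF143 sets was in 18 (35.3%), compared with 14.1% of all promoters. The same limit holds for this count, since it includes the ZNF143 letters. NRF1 letters were in 0 of 65 promoters of cytosolic ribosomal protein genes and in 2 of 53 of OXPHOS subunits. ETS letters were in 24.6% and 26.4% of these, and ZNF143 letters in 6.2% and 11.3%. At least 1 of the NRF1, ETS and ZNF143 sets was in 29.2% and 39.6%, so OXPHOS subunits lay above the members. A match is a description of letters and not evidence of binding.

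The promoters of 6 members described below that hold such letters are shown 5′ to 3′ in the direction of the gene, ending at the base before the start. They include the 3 Mrps18 paralogues, which hold different letters. Capitals mark the NRF1 letters in Mrpl17 (2 copies), Mrpl44 and Mrps18b, the ETS letters in Mrps18a and, on the other strand, in Mrps18c, and the ZNF143 letters in Mrpl34 (3 copies) and Mrps18c. The positions in GRCr8 are chr1:169575700-169575949 (minus strand) for Mrpl17, chr9:88554800-88555049 (plus) for Mrpl44, chr9:22367381-22367630 (minus) for Mrps18a, chr20:2842756-2843005 (plus) for Mrps18b, chr14:9122907-9123156 (minus) for Mrps18c and chr16:18186197-18186446 (plus) for Mrpl34.
Mrpl17: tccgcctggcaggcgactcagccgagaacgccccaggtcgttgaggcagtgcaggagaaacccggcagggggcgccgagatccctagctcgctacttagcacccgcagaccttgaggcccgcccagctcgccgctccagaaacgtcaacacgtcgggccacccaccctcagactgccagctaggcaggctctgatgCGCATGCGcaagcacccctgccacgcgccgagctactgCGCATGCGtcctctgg
Mrpl44: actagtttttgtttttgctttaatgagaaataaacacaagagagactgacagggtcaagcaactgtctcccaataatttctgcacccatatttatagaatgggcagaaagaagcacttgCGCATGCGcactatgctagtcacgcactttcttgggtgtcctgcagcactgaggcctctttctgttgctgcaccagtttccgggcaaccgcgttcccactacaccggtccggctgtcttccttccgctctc
Mrps18b: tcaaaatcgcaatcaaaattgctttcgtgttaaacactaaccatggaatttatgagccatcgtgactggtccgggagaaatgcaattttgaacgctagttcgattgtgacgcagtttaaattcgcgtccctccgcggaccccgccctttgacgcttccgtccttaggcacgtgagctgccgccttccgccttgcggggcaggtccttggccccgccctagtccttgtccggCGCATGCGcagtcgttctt
Mrps18a: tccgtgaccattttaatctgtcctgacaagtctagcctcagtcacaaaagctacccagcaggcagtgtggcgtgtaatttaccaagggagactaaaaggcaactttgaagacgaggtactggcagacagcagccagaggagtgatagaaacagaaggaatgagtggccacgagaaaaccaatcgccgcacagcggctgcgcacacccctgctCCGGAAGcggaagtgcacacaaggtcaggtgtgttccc
Mrps18c: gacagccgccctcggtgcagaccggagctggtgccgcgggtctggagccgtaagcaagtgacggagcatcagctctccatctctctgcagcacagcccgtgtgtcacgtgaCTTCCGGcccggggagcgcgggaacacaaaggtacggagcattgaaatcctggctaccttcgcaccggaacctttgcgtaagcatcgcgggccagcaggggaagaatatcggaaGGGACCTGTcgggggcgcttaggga
Mrpl34: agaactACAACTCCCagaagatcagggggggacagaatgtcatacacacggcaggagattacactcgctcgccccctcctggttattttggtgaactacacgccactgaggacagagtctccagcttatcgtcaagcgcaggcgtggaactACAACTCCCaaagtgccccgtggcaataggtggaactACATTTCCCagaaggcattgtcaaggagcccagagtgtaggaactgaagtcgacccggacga
The NRF1 letters began 54 and 16 bases before the start of Mrpl17, 131 bases before that of Mrpl44 and 19 bases before that of Mrps18b. The ETS letters began 38 bases before Mrps18a and 139 bases before Mrps18c. The ZNF143 letters began 244, 99 and 62 bases before the start of Mrpl34 and 25 bases before that of Mrps18c. Promoters of Mrpl38 and Mrpl43, which lead the next comparison, were not in the table. Among the members with a promoter, Mrpl46 of the large subunit and Mrps11 of the small subunit start 234 bases apart on opposite strands. Such a divergent partner within 1000 bases was found for 17 members, and the share over all genes was not counted.

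MA24 was compared with MA12 to follow the members from 12 h to 24 h of abstinence. Mrpl38, a protein of the central protuberance of the large subunit, was higher in MA24, and it was the only member that passed the test. The other members differed little. Their log2 fold changes lay between -0.28 and 0.36, no member reached a 1.5-fold difference, and the median was 0.08, compared with 0.00 over all genes tested. A value above 0 was seen in 52 of 66 members (78.8%), compared with 49.2% of the 12652 genes tested. Without MA24 rat 14N, 42 members lay above 0, and without any other single rat 50 to 55 did. Large-subunit symbols had a median of 0.06 and small-subunit symbols of 0.11. Members with a bacterial counterpart had a median of 0.08 and the mitochondria-specific ones of 0.06.

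Tested by quasi-likelihood in edgeR and adjusted over all genes (Benjamini-Hochberg), 1 member was higher at an adjusted p below 0.05, compared with 1.66% of genes tested, and 0 were lower, compared with 2.51%. With a 1.5-fold change added, 0 members passed in either direction, compared with 0.458% of genes higher and 1.08% lower. At an unadjusted p below 0.05, 11 members were higher and 0 lower, compared with 10.7% and 12.2% of genes. The 11 became 4 with library totals alone, 4 within the rats numbered with N and 5 with the kind of number as a covariate, and without rat 14N or 16N it was 6 or 7 higher and 1 lower. Without overlap between the 4 MA24 and the 4 MA12 rats, 6 members were higher and 0 lower, compared with 6.79% and 7.57% of genes. At the adjusted threshold, the share of members called was close to this background. With libraries scaled by their total counts alone, the median was 0.02 and 39 members lay above 0. The median of all genes moved to -0.06, so the distance of members from all genes stayed at 0.08. Without MA24 rat 14N this distance was 0.06.

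Mrpl38 had 820, 821, 815 and 643 counts in MA12 rats 21, 31, 4N and 7N and 976, 865, 880 and 982 counts in MA24 rats 9N, 14N, 15N and 16N. As levels these were 5.11, 5.10, 5.26 and 5.19 in MA12 and 5.39, 5.42, 5.50 and 5.70 in MA24. Every MA24 rat was above every MA12 rat and also above every non-addicted rat, whose levels were 5.27, 5.18, 5.30 and 5.10. The log2 fold change was 0.34 (SE 0.09, 1.27-fold, edgeR adjusted p = 0.0465). A two-sided exact permutation test, given only where groups did not overlap, had p = 0.0286, the lowest possible value for groups of 4. Any gene without overlap gives that value, so it adds nothing to the lack of overlap. Such separation, higher in MA24, was seen in 6.79% of genes tested. The edgeR call was narrow. Without 1 rat at a time the log2 fold change lay between 0.27 and 0.38, and the edgeR adjusted p rose above 0.05 in 7 of the 8 cases, all except without MA24 rat 9N. Within the rats numbered with N, 2 of MA12 and 4 of MA24, it was 0.29 (edgeR adjusted p = 0.323), where the test called 0 genes of the whole table.

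Mrpl43, a mitochondria-specific protein of the large subunit, had the highest log2 fold change of the members, 0.36 (SE 0.11, edgeR adjusted p = 0.0774). Its levels were 5.47, 5.67, 5.55 and 5.45 in MA12 and 6.09, 5.53, 5.94 and 5.97 in MA24. Rats 9N, 15N and 16N were above all MA12 rats and rat 14N was inside their range, although rat 14N had the highest mean of all members. Without rat 14N the log2 fold change was 0.46 (edgeR adjusted p = 0.0319), and without any other single rat the edgeR adjusted p lay between 0.102 and 0.192, with the lowest log2 fold change, 0.29, without rat 9N. In GRCr8 the span of Mrpl43 overlaps that of Twnk, the gene of the mitochondrial DNA helicase, which has no row under that symbol. A row under another symbol was not looked for. Reads from their shared part could be counted to Mrpl43.

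Mrpl34, a small protein of the large subunit with a bacterial counterpart, had 5.60, 5.72, 5.80 and 5.58 in MA12 and 5.86, 6.003, 5.93 and 6.07 in MA24, with no overlap. The log2 fold change was 0.29 (SE 0.08, edgeR adjusted p = 0.0611). The two-sided exact permutation p of 0.0286 again only restates the lack of overlap. Mrps18b, of the small subunit, had 5.32, 5.38, 4.93 and 5.46 in MA12 and 5.43, 5.77, 5.55 and 5.56 in MA24. The groups overlapped through MA12 rat 7N and MA24 rat 9N, and MA12 rat 4N was low. Its log2 fold change was 0.30 (SE 0.11, edgeR adjusted p = 0.136). Of the 66 members, DESeq2 and the likelihood ratio test of edgeR both called Mrpl38, Mrpl34 and Mrpl43. Over all 12652 genes and both directions, they called 1278 and 1137 genes.

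**Figure D2:**
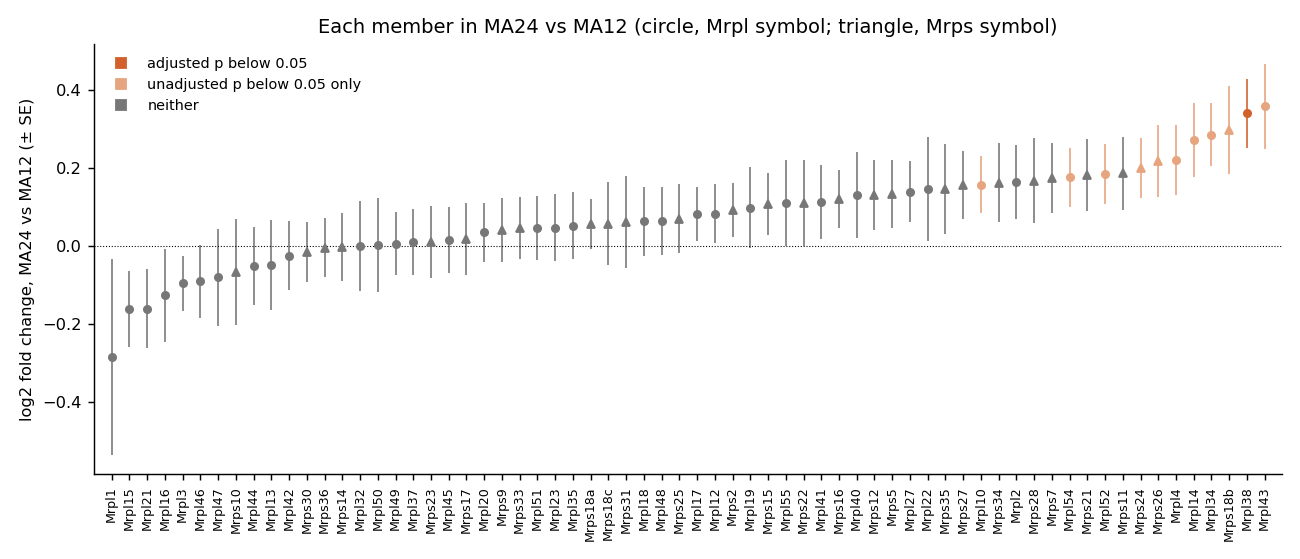
Log2 fold change of each of the 66 members in MA24 vs MA12 (y axis, bars ± SE from edgeR) in order of size (x axis). Mrpl38 at 0.34 is the 1 member past an adjusted p of 0.05, 10 more passed only the unadjusted threshold, all of them above 0, and 52 of 66 points lie above 0.

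The lowest values among members with a mean of at least 100 counts belonged to Mrpl15 (log2 fold change -0.16, SE 0.10), Mrpl21 (-0.16, SE 0.10), Mrpl16 (-0.13, SE 0.12) and Mrpl3 (-0.09, SE 0.07), all large-subunit proteins with bacterial counterparts. Their edgeR adjusted p lay between 0.342 and 0.571 and the groups overlapped in each. Mrpl1, of the stalk beside the exit of spent tRNA, had -0.28 with an SE of 0.25, from 42 to 102 counts per library.

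Members named for their place in the ribosome differed little between MA24 and MA12. Mrpl12, the stalk protein that also binds the mitochondrial RNA polymerase, had a log2 fold change of 0.08 (SE 0.07). Mrps12, of the decoding centre, had 0.13 (SE 0.09), and Mrpl45, which holds the ribosome at the inner membrane, had 0.02 (SE 0.08). At the tunnel exit, Mrpl47 had -0.08 (SE 0.12) and Mrpl17 had 0.08 (SE 0.07). For the large-subunit proteins with Mrps symbols, the values were 0.06 for Mrps18a (SE 0.06) and -0.01 for Mrps30 (SE 0.08). Mrps18c, the paralogue closest to the bacterial protein, had 0.06 (SE 0.11), below the 0.30 of Mrps18b, and the difference between the paralogues was not tested. None of these, Mrps18b included, passed the edgeR test (adjusted p from 0.136 to 0.940). The groups of Mrps18a all but touched, with 6.379 to 6.425 in MA12 and 6.425 to 6.496 in MA24 and no overlap only beyond the decimals given, and Mrps2 was apart with a log2 fold change of 0.09 (SE 0.07).

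By structural site, the 7 members of the central protuberance had a median log2 fold change of 0.13 with 6 above 0 and 1 called (Mrpl38). The 4 stalk proteins had a median of 0.12 with 3 above 0, the 6 of the tunnel exit 0.03 with 4 above 0, and the 3 near the decoding centre 0.13 with 3 above 0. In none of the last 3 groups was a member called. Mrpl52 (central protuberance) and Mrpl54 (listed with the stalks), chosen here after their values were seen, had 0.19 (SE 0.08, edgeR adjusted p = 0.163) and 0.18 (SE 0.08, edgeR adjusted p = 0.180).

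**Figure D3:**
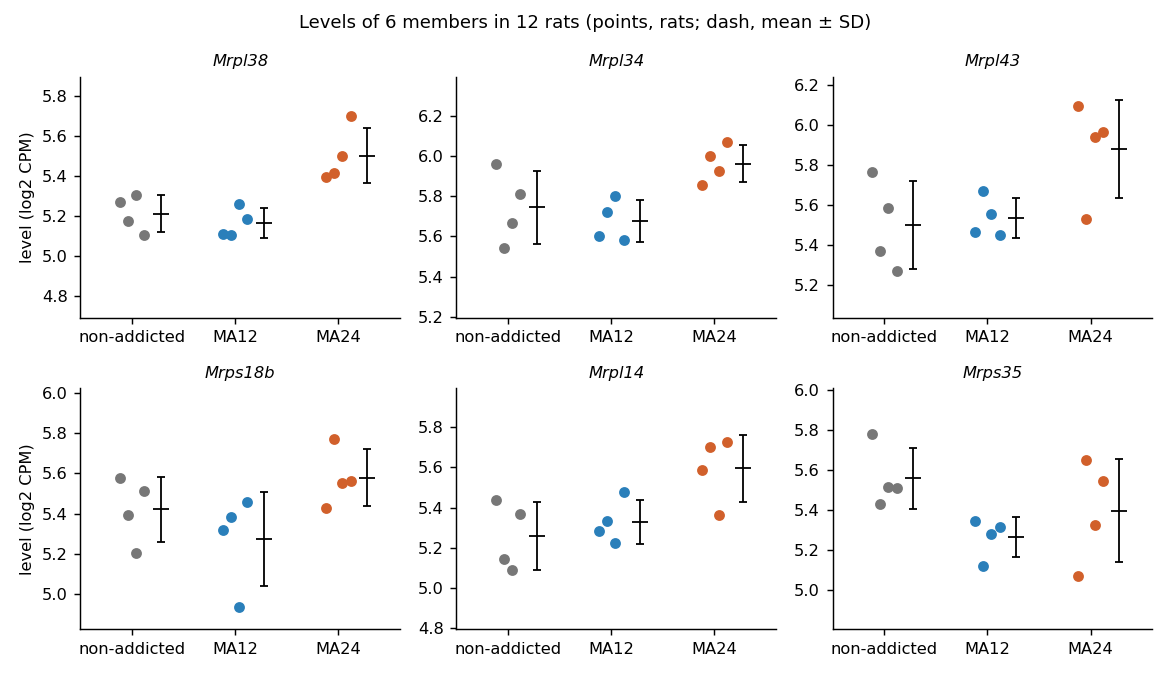
Levels (y axis, log2 CPM) of 6 members in the 12 rats by group (x axis), with 1 point per rat and the mean ± SD beside them. Mrpl38 and Mrpl34 show no overlap between MA24 and MA12, in Mrpl43 rat 14N at 5.53 falls among the MA12 rats, and in Mrps35 the non-addicted rats lie above the MA12 rats.

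Cytosolic ribosomal protein genes and OXPHOS subunits also lay mostly above 0 in MA24 vs MA12. Of 81 cytosolic ribosomal protein genes tested, 77 had a log2 fold change above 0, with a median of 0.15, and 1 was called (Rpl36, 0.35, SE 0.08, edgeR adjusted p = 0.0369). Of 76 OXPHOS subunits tested, 72 were above 0, with a median of 0.13, and 0 were called by edgeR. At an unadjusted p below 0.05, 24 and 21 genes of these lists were higher and 0 lower. The mitochondrial ribosomal median was thus below both. Mitoribosomal proteins under other symbols had a median of 0.11 with 5 of 6 above 0. The remaining lists of mitochondrial genes had medians on either side of 0. Assembly factors of the mitoribosome had a median of -0.01 (6 of 12 above 0), translation factors 0.05 (10 of 15) and aminoacyl-tRNA synthetases 0.02 (10 of 19). Genes of mitochondrial DNA transcription and replication, in 1 list, had -0.11 (1 of 7). Regulators of mitochondrial biogenesis had -0.03 (4 of 9) and proteases and chaperones -0.03 (2 of 8). No gene of these lists was called in any comparison. With mrpl11, mrpl24, mrpl9 and Mrp63 added to the members, 56 of 70 were above 0 and the median was 0.07.

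**Figure D4:**
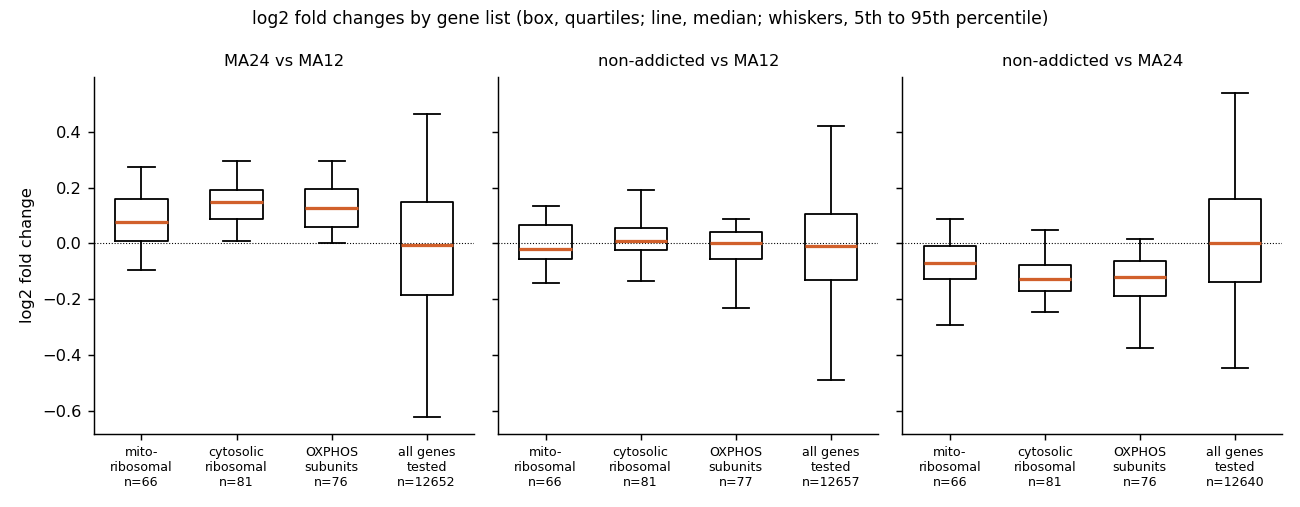
Log2 fold changes (y axis) of the members, cytosolic ribosomal protein genes, OXPHOS subunits and all genes tested (x axis) in the 3 comparisons, with boxes for quartiles, lines for medians and whiskers for the 5th and 95th percentiles. The medians of the members were 0.08, -0.02 and -0.07 from left to right.

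Some cell type markers also differed in level between these rats. The summed level of 6 pan-neuronal markers was 2187 to 2379 CPM in MA12 and 1831 to 2117 CPM in MA24, without overlap, although the list went both ways (3 of 6 above 0, median log2 fold change -0.04) and no gene of it was called. Oligodendrocyte markers, 6 genes, summed to 12150 to 21700 CPM in MA12 and 18110 to 21240 CPM in MA24, with a median log2 fold change of 0.19 and 0 called. Of the 6 mural markers, Rgs5 (-0.72, edgeR adjusted p = 0.0374) and Abcc9 (-0.73, edgeR adjusted p = 0.0450) were lower, and of the 10 projection neuron markers Pdyn was lower (-0.57, edgeR adjusted p = 0.0179). The projection neuron list as a whole went both ways, with 5 of 10 above 0, a median of -0.01 and a summed level of 14150 to 18110 CPM in MA12 and 16700 to 18460 CPM in MA24. None of these markers was at 0 in a group, and the part of cell composition in the member values was not tested.

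Non-addicted rats were compared with MA12 next. No member passed the edgeR test, where 0 were higher and 0 lower, compared with 0.0079% and 0.0316% of 12657 genes, which is 1 gene and 4 genes. DESeq2 and the likelihood ratio test also called 0 members, where they called 245 and 223 of the 12657 genes. At an unadjusted p below 0.05, 1 member was higher and 1 lower, compared with 5.29% and 6.73% of genes. The median log2 fold change of the members was -0.02, compared with -0.01 over all genes, and 27 of 66 were above 0 (40.9%), compared with 48% of genes. The median changed sign when 1 of non-addicted rats 11, 12 and 13 was left out, reaching 0.01. The groups were apart for 2 members, both higher, compared with 3.4% of genes, and for 0 lower, compared with 3.26%.

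Mrps35, a mitochondria-specific protein of the small subunit, had the largest difference. Its levels were 5.78, 5.43, 5.51 and 5.51 in the non-addicted rats and 5.34, 5.12, 5.28 and 5.31 in MA12, without overlap. The log2 fold change was 0.29 (SE 0.09, edgeR adjusted p = 0.235). The two-sided exact permutation p of 0.0286 only restates the lack of overlap. The MA24 rats spread across both groups, from 5.07 to 5.65. The other high values were those of Mrps22 (0.18, SE 0.10), Mrps25 (0.14, SE 0.09) and Mrps26 (0.13, SE 0.08), also of the small subunit and specific to mitochondria. Mrps2 was the other member without overlap (0.11, SE 0.07, edgeR adjusted p = 0.587). The lowest values were those of Mrpl21 (-0.19, SE 0.10), Mrpl3 (-0.16, SE 0.07, edgeR adjusted p = 0.395), Mrpl47 (-0.16, SE 0.13) and Mrps28 (-0.14, SE 0.14). Symbols of the small subunit had a median of 0.02 and those of the large subunit of -0.03. Members fixed for their place in the ribosome lay between -0.16 (Mrpl47) and 0.13 (Mrps18b).

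Non-addicted rats were also compared with MA24, a comparison that shares the non-addicted rats with the one before and the MA24 rats with the first. No gene of 12640 tested was called by edgeR (0% in either direction, with or without a 1.5-fold change), and hence 0 members. DESeq2 and the likelihood ratio test each called 1 member, Mrpl54, as lower, where they called 444 and 383 of the 12640 genes in either direction. At an unadjusted p below 0.05, 7 members were lower and 0 higher, compared with 8.12% and 9.51% of genes. The median log2 fold change was -0.07, compared with 0.00 over all genes, and 51 of 66 members were below 0, compared with 49.5% of genes. The median depended on single rats and on scaling, at -0.03 without MA24 rat 14N, -0.04 without non-addicted rat 11, -0.11 without non-addicted rat 9 and -0.03 with library totals alone, where 25 members lay above 0. The groups were apart for 2 lower members, compared with 4.49% of genes, and for 0 higher, compared with 4.92%. The median over cytosolic ribosomal protein genes was -0.13 and over OXPHOS subunits -0.12.

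The lowest members were Mrpl43 (-0.39, SE 0.13), Mrpl14 (-0.34, SE 0.11), Mrps28 (-0.30, SE 0.14) and Mrpl38 (-0.29, SE 0.09), with edgeR adjusted p from 0.145 to 0.280. Mrpl14, a conserved protein at the interface of the subunits, had 5.44, 5.14, 5.09 and 5.37 in the non-addicted rats and 5.59, 5.70, 5.36 and 5.73 in MA24. Rat 15N at 5.36 overlapped the non-addicted range. Mrpl38 was without overlap, as given above. Mrpl54, the other member without overlap, had 6.51, 6.48, 6.38 and 6.60 in the non-addicted rats and 6.80, 6.73, 6.66 and 6.93 in MA24 (-0.29, SE 0.08, edgeR adjusted p = 0.125). The highest values, Mrpl15 (0.13, SE 0.10), Mrps35 (0.15, SE 0.12), Mrpl44 (0.10, SE 0.11) and Mrpl51 (0.09, SE 0.08), were within the spread of the rats. Members fixed for their place lay between -0.16 (Mrps18b) and -0.01 (Mrps30).

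Marker levels also differed in the comparisons with the non-addicted rats. Endothelial markers, 6 genes, summed to 389.8 to 501.4 CPM in the non-addicted rats, 501.7 to 658.6 CPM in MA12 and 586.5 to 634.4 CPM in MA24. Mural markers, also 6, summed to 95.2 to 131 CPM, 137.9 to 215.5 CPM and 126.2 to 160.1 CPM in the same order. Ependymal and choroid markers, 6 genes, summed to 39.6 to 101.2 CPM, 26.9 to 72.2 CPM and 29.1 to 45.3 CPM, with overlap. Their median log2 fold changes were 0.54 against MA12 (5 of 6 above 0) and 0.99 against MA24 (6 of 6). Single markers of this list ranged from -0.35 to 5.90 against MA12 and from 0.25 to 5.58 against MA24. Non-addicted rat 13 had a mean deviation of -0.35 in this list, while the other non-addicted rats had 0.60 to 1.44. Oligodendrocyte markers summed to 11670 to 17280 CPM in the non-addicted rats, below the 18110 to 21240 CPM of MA24 without overlap, and all 6 were at a log2 fold change below 0 and an unadjusted p below 0.05 by edgeR in that comparison (median -0.35). Microglia markers, 6 genes, had a median of -0.15 against MA24, with 6 of 6 below 0 and 1 of them at an unadjusted p below 0.05. No marker was called in these comparisons, none was at 0 in a group, and their part in the member values was not tested.

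Overlapping genes limit some values. In GRCr8 the spans of 16 members overlap another gene, among them Mrpl43 with Twnk, Mrpl14 with Tmem63b, Mrpl16 with Stx3, Mrpl47 with Actl6a and Ndufb5, Mrpl55 with Guk1 and Mrps2 with Pierce1. The share of all genes with such an overlap was not counted. The library kit does not mark strand, so reads from such shared parts cannot be assigned by strand.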

How the data were processed

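Whole striatum of 12 rats was sequenced from TruSeq poly-A libraries. Per the submitters' processing notes and methods, the authors used Cutadapt 1.18 for trimming, STAR 2.7.0e for alignment to rn6 and featureCounts for counting (HTSeq 0.12.4 is listed with no role, and the treatment of multi-mapping reads is not given in the sources used here). The deposited values are raw counts per gene, without normalization. Groups came from the labels, and replicate rats differed beyond counting noise (chi-square per degree of freedom from 9.96 to 28.9).

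Each pair of groups was fitted alone with edgeR 4.0.16 (R 4.3.3), with TMM scaling and the quasi-likelihood test, keeping genes whose counts averaged more than 4 in the 8 libraries, and p-values were adjusted by Benjamini-Hochberg. The study's filter on the 15% of genes with the lowest variance was an alternative here, since it removes steady genes. Other alternatives were DESeq2 1.42.0, the likelihood ratio test, other scalings and filters, and leaving out each rat. Levels are log2 CPM (TMM, prior count 2). Members and gene lists were chosen with earlier results of these data known. Named were members past the adjusted threshold, the 4 highest and 4 lowest log2 fold changes (mean count of at least 100), 8 fixed members and the 3 most and 3 least variable. p-values weigh a difference between groups against the spread between these rats. Promoters (RefSeq, GRCr8) were used for letters only.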

Additional observations from a re-analysis of the deposited data

Results flagged for a closer look

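Each named member was examined in each of the 3 groups of 4 rats, which gave 78 sets. In 6 of them 1 rat lay far from the other 3. This was judged by the gap to the nearest rat as a share of the group's range (limit from Dixon's test). Chance would give about 1 in 20, or 3.9 sets, if they were independent. They share the same 12 rats, and some members were named for extreme values, so 3.9 is only a rough guide. Mrps12 was low in non-addicted rat 11 (share 0.842), with a level of 4.87 log2 CPM compared with 5.06 to 5.10. Mrpl51 was high in non-addicted rat 9 (share 0.844), at 5.71 compared with 5.52 to 5.55, in the rat where most members were high. In MA12, Mrps22 was high in rat 31 (share 0.831), at 4.69 compared with 4.55 to 4.58, and Mrps28 was low in the same rat (share 0.933), at 3.81 compared with 4.03 to 4.05. Mrpl17 was high in MA12 rat 21 (share 0.833), at 6.65 compared with 6.54 to 6.55. Mrpl21 was high in MA24 rat 14N (share 0.876), at 4.95 compared with 4.61 to 4.65, again in a rat where most members were high. The lowest of these counts was 334 (Mrps28).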

How the results depend on the processing

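The sign of the median log2 fold change in MA24 vs MA12 and in non-addicted vs MA24 was the same under every alternative run, while that of non-addicted vs MA12 lay near 0 and changed sign without some rats. In MA24 vs MA12, the count of members higher at an edgeR adjusted p below 0.05 was 1. It was 0 with library totals as the only scaling, 0 within the rats numbered with N, 0 with the kind of number as a covariate, and 3 with both DESeq2 and the likelihood ratio test. Of all 12652 genes, DESeq2 called 1278 and the likelihood ratio test 1137. Leaving out 1 rat at a time gave 0 to 2 members past the edgeR threshold. Within the N rats, with the covariate and without MA12 rat 21, edgeR called 0 genes of the whole table. The median log2 fold change was 0.0227 with library totals and 0.05 without MA24 rat 14N. In non-addicted vs MA24, the median lay between -0.11 (without non-addicted rat 9) and -0.03 (without MA24 rat 14N), and DESeq2 and the likelihood ratio test called 1 member as lower, compared with 0 by the quasi-likelihood test. There, DESeq2 called 444 and the likelihood ratio test 383 of all 12640 genes. The variance filter left 45 members in the first comparison, 48 in the second and 47 in the third. The causes were not tested. Adding the 4 symbols in other spellings was chosen after seeing the data and changed no count of calls. No paired analysis was possible because the rat numbers are not shared between groups. At a mean of 72.1 counts, Mrpl1 had an SE of 0.25 in MA24 vs MA12, so differences of that size were not detectable for it.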
